A study of Drosophila melanogaster with 8 samples.

Results

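The genes described here are 10 genes of apical polarity and the adherens junction in Drosophila melanogaster: crb, sdt, Patj, baz, par-6, aPKC, yrt, shg, arm and ed. They were taken by symbol from a table of 15182 fly genes, and their 39 isoforms from a table of 25406 fly isoforms. RNA came from embryos at early stage 14 that carried the E10::EGFP transgene, in which an enhancer of ovo drives EGFP, and cells were dissociated from large pools of embryos. Each of 4 independent sorts gave 1 library of EGFP-positive cells, called GFP-positive here, and 1 library of cells of the scatter gate above it, named all cells in this text. The gate for EGFP was set on cells of wild type embryos, and no other allele or agent is named in the labels. The all-cell libraries therefore hold EGFP-positive cells too, although the design text of the series calls the background cells GFP-negative. EGFP marks cells by the activity of this transgene. Nothing in the labels says that embryos of the 4 sorts came from separate fly populations, so p-values measure the spread between these sorts.

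Epithelial cells of the fly hold an apical domain, a belt of adherens junctions just below it and a basolateral domain. The transmembrane protein Crumbs and its scaffold Stardust define the apical domain, Bazooka (Par-3), Par-6 and the kinase aPKC form the Par complex that places the junctions, and E-cadherin, encoded by shg, binds Armadillo, the fly beta-catenin, in the junction itself. In the embryonic epidermis these proteins keep the sheet intact while cells change shape, and Armadillo also carries the Wingless signal.

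Values are FPKM, fragments scaled by transcript length and by the mapped fragments of the library, so levels can be compared between genes per length. Depth was estimated from the steps of the low values, at 5920000 to 9400000 fragments in GFP-positive and 9800000 to 11930000 in all-cell libraries. By that estimate the least covered value among the 10 genes, Patj in GFP-positive library 4, rested on about 260 fragments. The cell makeup was described with 8 lists of marker genes. Summed FPKM of 6 epidermal markers ran from 2340 to 3530 in GFP-positive and from 227 to 546 in all-cell libraries, and that of 3 tracheal markers from 310 to 383 and from 105 to 144. The 6 include ovo, whose enhancer drives the sorted EGFP, so its rise is no independent check of the sort. Whether the other epidermal markers depend on ovo was not tested. Gasp held the largest part of the epidermal sum, at 1470 ± 349 against 197 ± 95.6 FPKM, so the sum leans on this gene. Whether the Gasp RNA came from epidermal or from tracheal cells was not tested. Sums were lower in GFP-positive cells for 5 neuronal markers (77.1 to 220 against 448 to 871) and for 5 muscle markers (285 to 436 against 1410 to 2190). The same held for 5 neuroblast markers (26.0 to 51.1 against 93.2 to 183), 4 gut markers (8.82 to 24.1 against 57.6 to 79.9) and 4 hemocyte markers (88.0 to 171 against 176 to 245). Not every member fell. The neuroblast marker insc was at 17.9 ± 6.69 against 17.4 ± 2.26 FPKM and the hemocyte marker Pxn at 51.1 ± 24.4 against 53.4 ± 7.8 FPKM, and neither was called. The sum of 7 amnioserosa markers was higher (214 to 319 against 133 to 150), although Kr among them was called lower, at 12 ± 6.37 against 38.9 ± 11.1 FPKM. No marker on these lists was at 0 in any GFP-positive library. The part of this difference in cell makeup in the results below was not tested, and in such bulk libraries fewer cells of a type cannot be told apart from less RNA per cell.

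The 10 genes were compared between the groups with limma on log2(FPKM + 1), adjusted over 10943 genes. Of them 4 were called higher in GFP-positive cells (crb, sdt, shg and ed), 0 lower and 6 not called. Among the 6, baz had the lowest unadjusted p by limma, at 0.045. Over all genes tested, 11.6% were called higher and 38.7% lower. The 10 genes had a median log2 fold change of 0.25, against -0.47 for all genes tested. The FPKM of the 10 genes summed to 847 to 891 in GFP-positive and 634 to 703 in all-cell libraries. This sum leans on ed, whose means differed most, at 284 against 145 FPKM. arm alone had the lower mean in GFP-positive cells, at 233 against 268 FPKM. These directions hold for the values as deposited. With a TMM-like scaling, which brought the median of all genes to -0.01, all 10 were called higher (21.6% of all genes higher, 18.9% lower). With a scaling by ERCC spike-ins of subgroup B, which brought that median to -1.35, 0 were called higher and 3 lower, namely par-6, yrt and arm (3.17% of all genes higher, 64.8% lower). In each of these 3 scalings every one of the 10 genes lay above the median of all genes.

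**Figure D1:**
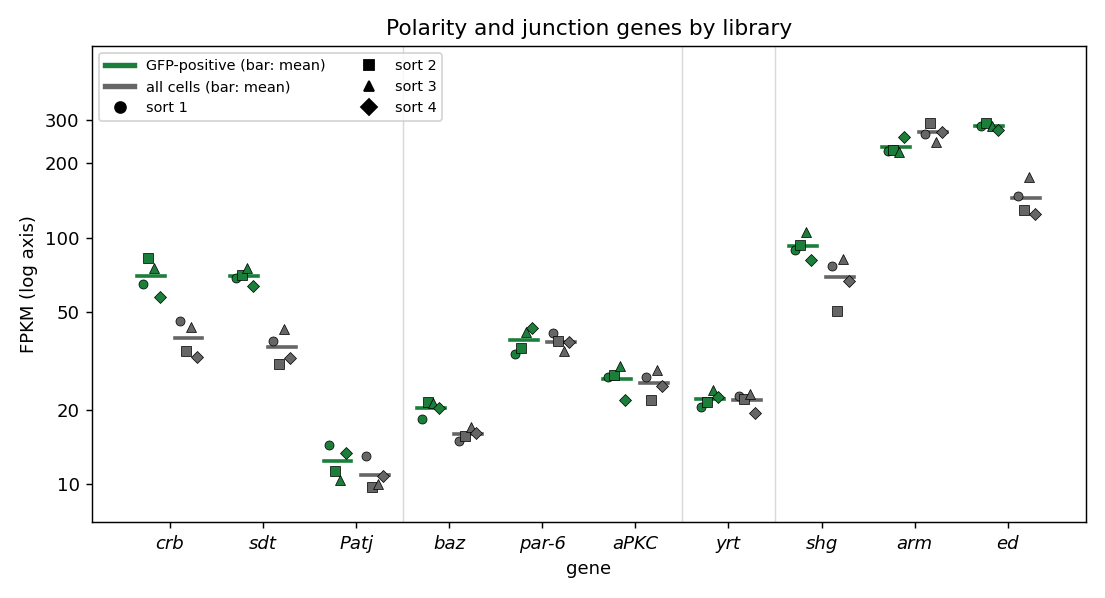
FPKM of the 10 genes on a log axis, in 4 GFP-positive libraries (green) and 4 all-cell libraries (grey), with the sort as the marker shape and the mean as a bar. The groups stand apart for crb, sdt, baz and ed, and the widest gap is that of ed, at 273 to 292 against 125 to 176 FPKM; grey lines part the Crumbs complex, the Par complex, yrt and the junction genes.

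The Crumbs complex was described first. crb (CG6383, chromosome 3R, 20120800 to 20140154 on build dm3) encodes the apical transmembrane protein Crumbs. It stood at 64.7, 82.7, 75.6 and 57.3 FPKM in GFP-positive libraries 1 to 4 and at 45.8, 34.7, 43.4 and 32.8 FPKM in all-cell libraries 1 to 4. Every GFP-positive library was above every all-cell library, the lowest being that of sort 4. The means were 70.1 ± 11.3 and 39.2 ± 6.38 FPKM (SD, n = 4 each), and the log2 fold change was 0.82 (limma, SE 0.16, adjusted p = 0.00187), but -0.22 with ERCC subgroup B and -0.11 with the ERCC sum.

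sdt (CG32717, chromosome X, 8072582 to 8133474) encodes the scaffold Stardust, which binds the cytoplasmic tail of Crumbs. Its FPKM was 68.8, 70.7, 75.5 and 63.5 in GFP-positive libraries and 38.1, 30.8, 42.4 and 32.5 in all-cell libraries. The groups did not overlap, and sort 3 was highest in each. The mean rose from 36.0 ± 5.32 to 69.6 ± 4.99 FPKM (SD, n = 4 each), with a log2 fold change of 0.94 (limma, SE 0.14, adjusted p = 3.2e-04), but -0.10 with ERCC subgroup B and 0.01 with the ERCC sum. In the authors' deposited table, which tests each sort by itself, sdt was higher at a q-value under 0.05 in 4 of 4 sorts and crb in 1.

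Patj (CG12021, chromosome 3L, 1798809 to 1802184) encodes a PDZ scaffold that binds Stardust. Its locus overlaps JTBR by 177 bases, so its reads may not be fully separable. Patj had 14.4, 11.3, 10.4 and 13.4 FPKM in GFP-positive libraries and 13.0, 9.69, 10.0 and 10.8 FPKM in all-cell libraries. The groups overlapped, although the GFP-positive library was the higher in 4 of 4 sorts. The log2 fold change of 0.17 had a 95% interval from -0.25 to 0.59 and was not called (limma adjusted p = 0.483).

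The genes of the Par complex showed smaller differences than crb and sdt. baz (CG5055, chromosome X, 17054062 to 17089350) encodes Bazooka, which marks the sites where junctions form. Its values were 18.3, 21.5, 21.4 and 20.4 FPKM in GFP-positive libraries and 15.0, 15.7, 17.0 and 16.1 FPKM in all-cell libraries. The groups did not overlap, as for 10.2% of all genes tested in the higher and 34.8% in the lower direction, yet baz missed the threshold. The means were 20.4 ± 1.48 and 15.9 ± 0.811 FPKM (SD, n = 4 each), with a log2 fold change of 0.34 (limma, SE 0.15, adjusted p = 0.0813).

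par-6 (CG5884, chromosome X, 17597362 to 17601129) encodes the adaptor that holds aPKC and binds Cdc42. It stood at 33.6, 35.5, 41.4 and 43.1 FPKM in GFP-positive and at 41.1, 38.1, 34.7 and 37.6 FPKM in all-cell libraries. GFP-positive was higher in 2 sorts and lower in the other 2. The log2 difference of 0.01 had a 95% interval from -0.29 to 0.32 (limma adjusted p = 0.941).

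aPKC (CG42783, chromosome 2R) encodes the kinase of the complex, and its locus overlaps CG10257 by 12 bases. Its values were 27.3, 27.6, 30.2 and 21.9 FPKM in GFP-positive and 27.1, 21.9, 29.1 and 24.9 FPKM in all-cell libraries. The groups overlapped over nearly all of their range. The log2 fold change of 0.05 had a 95% interval from -0.30 to 0.40 (limma adjusted p = 0.812).

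yrt (CG9764, chromosome 3R, 9254589 to 9260704) encodes Yurt, a FERM protein that binds Crumbs and limits its activity. It had 20.6, 21.5, 24.1 and 22.5 FPKM in GFP-positive and 22.7, 22.1, 23.3 and 19.5 FPKM in all-cell libraries. The groups overlapped, with each group higher in 2 sorts. The log2 fold change of 0.02 had a 95% interval from -0.30 to 0.33 (limma adjusted p = 0.934).

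Among the junction genes, shg (CG3722, chromosome 2R), which encodes E-cadherin, stood at 89.0, 93.3, 105 and 81.2 FPKM in GFP-positive and at 76.5, 50.2, 82.2 and 66.9 FPKM in all-cell libraries. It was higher in 4 of 4 sorts, but GFP-positive library 4 lay below all-cell library 3. The means were 92.1 ± 9.85 and 69.0 ± 14.0 FPKM (SD, n = 4 each), and the log2 fold change of 0.43 (limma, SE 0.17, adjusted p = 0.0492) lay just inside the threshold. The call was kept in only 2 of the 12 fits that left out a library or a sort (limma adjusted p from 0.0261 to 0.217), and the log2 fold change was -0.62 with ERCC subgroup B.

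arm (CG11579, chromosome X, 1785434 to 1794673) was the most abundant of the 10 in all cells. It had 225, 226, 223 and 257 FPKM in GFP-positive and 264, 293, 245 and 268 FPKM in all-cell libraries. It was lower in GFP-positive cells in 4 of 4 sorts, but GFP-positive library 4 lay above all-cell library 3. The log2 fold change of -0.20 (SE 0.11) had a 95% interval from -0.45 to 0.05 and was not called (limma adjusted p = 0.164); its sign turned with TMM-like scaling, to 0.36 (limma adjusted p = 0.0491).

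ed (CG12676, chromosome 2L, 4031379 to 4115059) encodes Echinoid, an immunoglobulin-domain adhesion protein of the adherens junction. A snoRNA gene lies within its locus over 116 bases. ed stood at 285, 292, 285 and 273 FPKM in GFP-positive and at 148, 129, 176 and 125 FPKM in all-cell libraries. Every GFP-positive library was far above every all-cell library, and the GFP-positive values lay close together. The means were 284 ± 8.04 and 145 ± 23.3 FPKM (SD, n = 4 each), with a log2 fold change of 0.98 (limma, SE 0.13, adjusted p = 1.6e-04), but -0.07 with ERCC subgroup B and 0.04 with the ERCC sum. In the authors' deposited table the log2 fold change of ed ran from 0.70 to 1.18 over the 4 sorts, with 0 at a q-value under 0.05.

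**Figure D2:**
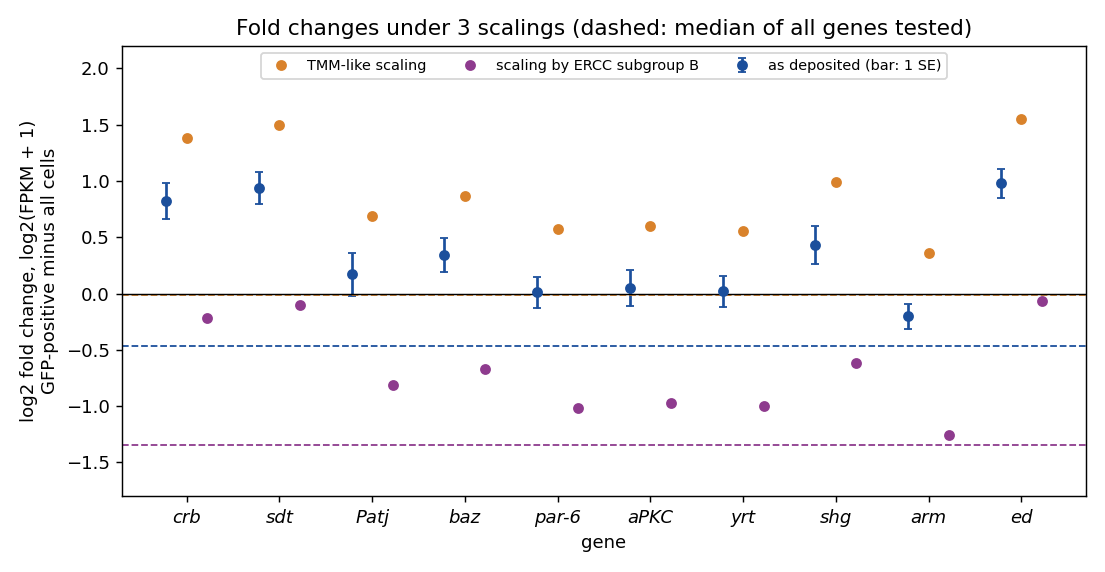
Log2 fold change of the 10 genes, GFP-positive minus all cells, as deposited (blue, with 1 SE), with TMM-like scaling (orange) and with scaling by ERCC subgroup B (purple); dashed lines are the median of all genes tested under each. The order of the genes is alike in the 3 scalings while the zero line moves, from 10 genes above 0 with TMM-like scaling to 0 above it with ERCC subgroup B.

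The ratios of the spike-ins differed between their subgroups. Relative to the fly FPKM of the library, the log2 ratio of GFP-positive to all-cell libraries was -1.41, -1.14, -0.94 and 0.19 in sorts 1 to 4 for spike-ins of subgroup A, and 0.69, 0.87, 0.97 and 2.15 for subgroup B. The labels name Mix 2 for all 8 samples. With 1 mix in all libraries these ratios would be equal in every subgroup, and they were not. The cause was not tested. The subgroup of each spike-in is background knowledge of the product, in which subgroup B has equal amounts in both mixes, and no table of subgroups was given with the files. Spike-ins were added to a fixed mass of total RNA, per the labels' protocols, so this scaling does not count transcripts per cell. Sort 4 stood apart from the others in every subgroup. The ERCC sum pools subgroups with unlike ratios, so results scaled by it carry that difference.

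The order of levels was nearly the same in both groups. In GFP-positive cells it ran ed, arm, shg, crb, sdt, par-6, aPKC, yrt, baz and Patj. Neighbours whose ranges overlapped were shg and crb, crb and sdt, aPKC and yrt, and yrt and baz. In all cells arm was above ed in all 4 libraries, and crb, par-6 and sdt followed shg with overlapping ranges at means of 39.2, 37.9 and 36.0 FPKM; aPKC and yrt overlapped there too. Thus par-6 lay level with crb and sdt in all cells and below each GFP-positive value of either in GFP-positive cells. Patj was lowest in each group.

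Ratios of FPKM between partner transcripts in 1 library do not depend on how that library is scaled. They were tested on log2(FPKM + 1), and the added 1 leaves the tested differences with some dependence on scaling, most for low genes. Of 6 ratios compared with an exact two-sided permutation test, 0 passed after Benjamini-Hochberg adjustment, and 4 libraries against 4 cannot give a p under 0.0286. The ratio of sdt to crb was 1.06, 0.855, 0.998 and 1.11 in GFP-positive and 0.831, 0.887, 0.978 and 0.990 in all-cell libraries. These partners were thus near 1 to 1 in each library, and the log2 difference of 0.12 was not beyond the spread (exact p = 0.257, adjusted 0.309).

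Ratios of a partner that was not called to one that was called higher came next. Their differences follow from the log2 fold changes of the genes given above, so they add no separate support. Those were 0.17 for Patj and 0.94 for sdt, and 0.02 for yrt and 0.82 for crb. Patj to sdt was 0.209, 0.160, 0.138 and 0.211 in GFP-positive and 0.342, 0.315, 0.236 and 0.333 in all-cell libraries, a log2 difference of -0.77 (exact p = 0.0286, adjusted 0.0857). yrt to crb was 0.318, 0.260, 0.318 and 0.392 against 0.495, 0.635, 0.538 and 0.595, a log2 difference of -0.81 (exact p = 0.0286, adjusted 0.0857). Neither pair of groups overlapped. With libraries paired by sort, an exact test that flips the sign of each sort's difference gave p = 0.125 for each. That is the smallest p that 4 pairs can give. arm to shg was 2.53, 2.42, 2.12 and 3.16 against 3.46, 5.84, 2.98 and 4.01, lower in 4 of 4 sorts with overlapping groups, a log2 difference of -0.63 (exact p = 0.0571, adjusted 0.114). Within the Par complex, baz to aPKC differed by 0.29 (exact p = 0.0857, adjusted 0.129) and par-6 to aPKC by -0.04 (exact p = 0.83) on the log2 scale.

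**Figure D3:**
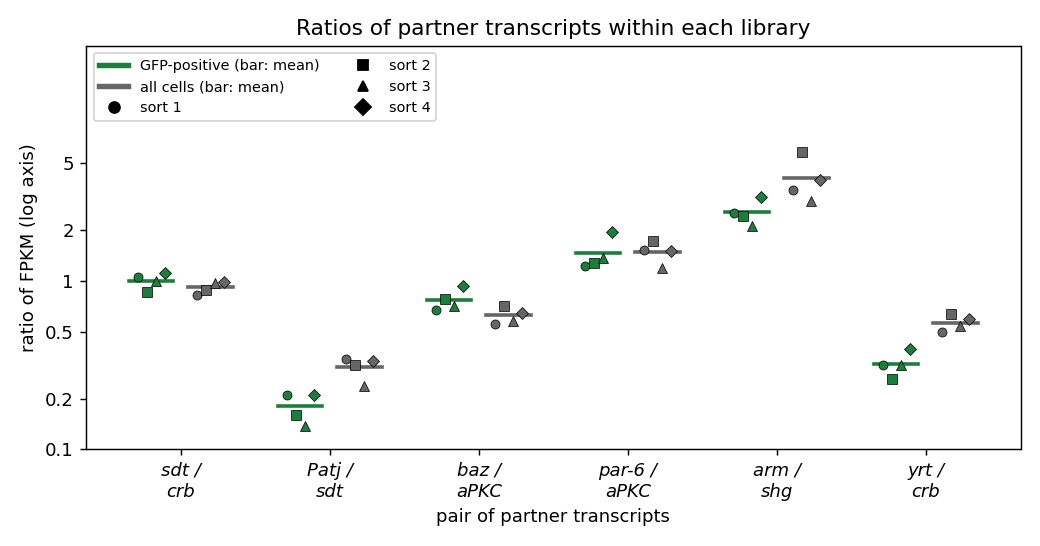
Ratio of the FPKM of partner transcripts within each library, on a log axis, for 4 GFP-positive (green) and 4 all-cell libraries (grey), with bars at the mean ratio. sdt to crb lies near 1 in both groups, and the groups are separate for Patj to sdt (0.138 to 0.211 against 0.236 to 0.342) and for yrt to crb (0.260 to 0.392 against 0.495 to 0.635).

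Isoforms were tested in the same way, as the authors' Cufflinks values per isoform. Isoforms of 1 gene share most exons, so their values are estimates of how shared reads divide and are less certain than those of the gene. Of the 39 isoforms, 29 passed the filter of 1 FPKM in at least 4 libraries, and 10 did not. Among the 29, 8 were called higher, 2 lower and 19 not called, where 9.28% of all isoforms tested were called higher and 27.2% lower. With TMM-like scaling 13 were higher and 1 lower (16.2% and 11.7% of all isoforms), and with ERCC subgroup B 2 were higher and 9 lower (2.81% and 53.9%). The 8 were crb-RA, crb-RB, sdt-RB, sdt-RF, sdt-RI, sdt-RL, ed-RA and arm-RB, and the 2 were sdt-RG and arm-RC.

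sdt had the richest isoform pattern. sdt-RG, annotated in Release 6 with 2020 codons, was at 0.130, 0.508, 0.534 and 0 FPKM in GFP-positive and at 2.86, 5.04, 6.5 and 3.47 FPKM in all-cell libraries. The groups were well apart, and GFP-positive library 4 listed it at 0. Its log2 fold change was -2.06 (limma, SE 0.33, adjusted p = 0.00138), and -1.77 with TMM-like scaling (limma adjusted p = 0.00595). sdt-RL, whose start lies 4 bases away, moved in the other direction as deposited, from 1.64 ± 0.327 to 3.75 ± 0.661 FPKM (SD, n = 4 each), a log2 fold change of 0.85 (limma adjusted p = 0.0364) and 0.06 with ERCC subgroup B. Its call was kept in 2 of 12 fits that left out a library or a sort (limma adjusted p from 0.046 to 0.163).

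sdt-RF had 5.44, 10.3, 7.86 and 5.36 FPKM in GFP-positive and 1.51, 0, 1.45 and 0.128 FPKM in all-cell libraries. The groups did not overlap, and in all-cell library 2 it was listed at 0. Its log2 fold change of 2.30 (limma adjusted p = 0.00237) stayed above 0 with ERCC subgroup B, at 1.69 (limma adjusted p = 0.0115). sdt-RB rose from 7.13 ± 0.816 to 19.1 ± 5.34 FPKM and sdt-RI, the leading isoform, from 10.1 ± 2.89 to 22.5 ± 5.67 FPKM (SD, n = 4 each), with log2 fold changes of 1.27 and 1.08 (limma adjusted p = 0.00369 and 0.00867). With ERCC subgroup B these were 0.29 and 0.09 and were not called. sdt-RH was not called, at 8.5 ± 2.43 against 6.87 ± 1.07 FPKM.

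Grouped by annotated start, a grouping made after the values were seen and given without a test, sdt-RF and sdt-RB start at 8087235 and 8087268 on chromosome X. Together they had 29.5, 22.2, 26.1 and 27.4 FPKM in GFP-positive and 9.65, 6.40, 7.99 and 7.55 FPKM in all-cell libraries. The mean was 3.33-fold higher as deposited, and this fold change does depend on library scaling. Their share of sdt was 31.4% to 43.1% in GFP-positive and 18.8% to 25.3% in all-cell libraries. The 3 isoforms that start at 8072582 to 8072586 (RG, RJ and RL) took 4.85% to 7.36% against 12.7% to 20.2%. Shares within a gene do not depend on library scaling, and neither pair of ranges overlapped. The share of RE and RI, at 8110162 to 8110178, overlapped between groups at 26.7% to 40.7% and 25.9% to 33.1%. That of RH, which starts at 8110857, was 8.51% to 16.9% against 17.5% to 20.4%.

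arm-RC and arm-RB share their start (1793643, minus strand) and their span but differ in length of the coding part, at 721 and 843 codons in the Release 6 annotation. Background knowledge holds that the fly nervous system makes a form of Armadillo with a shorter carboxyl terminus; the files do not say that arm-RC encodes it. arm-RC stood at 12.8, 9.38, 17.1 and 14.0 FPKM in GFP-positive and at 24.8, 40.4, 42.2 and 29.9 FPKM in all-cell libraries. The groups did not overlap. The log2 fold change was -1.30 (limma, SE 0.24, adjusted p = 0.00283) and -0.76 with TMM-like scaling (limma adjusted p = 0.0701). arm-RC took 4.15% to 7.70% of arm in GFP-positive and 9.39% to 17.2% in all-cell libraries. The summed neuronal markers moved in the same direction, and their part in this difference was not tested.

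arm-RB had 28.8, 12.6, 12.1 and 4.80 FPKM in GFP-positive and 0.0253, 0, 0 and 4.67 FPKM in all-cell libraries. All-cell library 4 stood apart from the other 3 and almost reached GFP-positive library 4. Together arm-RB, arm-RC and arm-RE, which share 1 annotated start, had 41.6, 21.9, 29.2 and 18.8 FPKM in GFP-positive libraries. In all-cell libraries they had 35.2, 40.4, 43.5 and 34.6 FPKM, and the groups overlapped. Their share of arm also overlapped, at 7.3% to 18.5% against 12.9% to 17.7%. The log2 fold change of arm-RB, 3.09 (limma, SE 0.66, adjusted p = 0.00608), depends on the pseudocount, since 2 libraries were listed at 0. The 2 leading isoforms, arm-RD and arm-RA, were not called, at 122 ± 15.3 against 146 ± 1.81 and 82.6 ± 32.9 against 83.0 ± 19.7 FPKM (SD, n = 4 each).

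**Figure D4:**
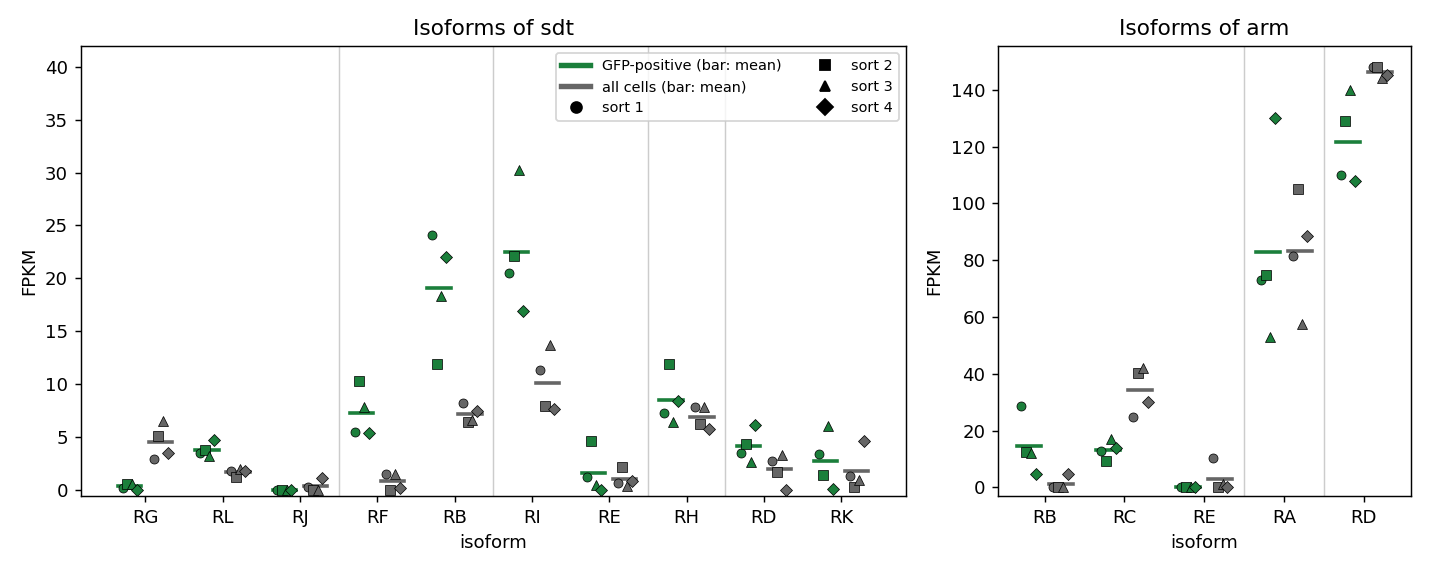
FPKM of the isoforms of sdt (left) and arm (right) in 4 GFP-positive (green) and 4 all-cell libraries (grey), with bars at the mean; grey lines part groups of isoforms by annotated start. sdt-RG and arm-RC are lower, and sdt-RF, sdt-RB and sdt-RI higher, in every GFP-positive library than in every all-cell library, as deposited.

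Of the other isoforms, crb-RA rose from 22.5 ± 5.0 to 42.2 ± 7.63 FPKM (log2 fold change 0.89, limma adjusted p = 0.0109), but was at -0.14 with ERCC subgroup B. Without sort 2 its adjusted p by limma was 0.0604. crb-RB, at 17.8 ± 4.96 against 8.94 ± 2.67 FPKM, was called at 0.92 (limma adjusted p = 0.0349), but not with the sort as a block (limma adjusted p = 0.0614) and in only 4 of 12 fits without a library or a sort, and GFP-positive library 1 lay below 2 all-cell libraries. crb-RC was not called, at 10.1 ± 2.81 against 7.73 ± 2.69 FPKM. ed and shg have 1 listed isoform each; shg-RA missed the threshold in the isoform test (limma adjusted p = 0.0814). The main isoforms of the Par genes were not called: baz-RA stood at 19.5 ± 1.47 against 15.3 ± 0.623, aPKC-RC at 11.6 ± 2.68 against 13.4 ± 2.06, aPKC-RA at 7.82 ± 0.684 against 5.55 ± 1.19 and par-6-RA at 38.4 ± 4.56 against 37.9 ± 2.65 FPKM. Nor was yrt-RA called, at 17.8 ± 3.64 against 13.9 ± 2.35 FPKM. Patj-RC ran from 0 to 5.65 FPKM in GFP-positive and from 1.56 to 10.4 FPKM in all-cell libraries, and Patj-RA from 0.000673 to 13.3 and from 0 to 8.14 FPKM. Neither was called, and the groups overlapped.

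The share of the leading isoform was tested for the 5 genes that have more than 1 isoform at 5 FPKM. crb-RA took 60.2% ± 6.70 of crb in GFP-positive and 57.4% ± 9.70 in all cells (SD, n = 4 each), and sdt-RI 31.9% ± 5.79 against 27.7% ± 3.95 of sdt. aPKC-RC took 43.1% ± 6.38 against 52.0% ± 5.76 of aPKC, the lowest p of the 5 (exact permutation p = 0.0857, adjusted 0.429). None of the 5 passed by the exact permutation test, whose smallest p is 0.0286.

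Other genes of the pathway came from 6 lists with 47 genes, of which 46 were tested. As deposited, 20 were called higher and 9 lower, against 11.6% and 38.7% of all genes. With TMM-like scaling the counts were 29 and 2, against 21.6% and 18.9% of all genes. With ERCC subgroup B they were 1 and 20, against 3.17% and 64.8%. Among 6 apical partners, 3 rose: ex, a FERM protein that links Crumbs to Hippo signalling, at 121 ± 12 against 51.9 ± 6.18 FPKM (log2 fold change 1.21), Moe, the actin linker Moesin, at 0.79, and kst, the heavy beta-spectrin of the apical cortex, at 0.78. lkb1, a kinase, and Cdc42, the GTPase that binds Par-6, were lower at -0.81 and -0.30 as deposited, but with TMM-like scaling they were at -0.32 and 0.26 and neither was called (limma adjusted p = 0.304 and 0.116). With ERCC subgroup B, ex was at 0.16 and not called (limma adjusted p = 0.746), and Moe and kst were each at -0.26. The limma adjusted p of these 5 genes ran from 5.7e-05 to 0.0361 as deposited. The calls of lkb1 and Cdc42 were kept in 3 and 2 of the 12 fits that left out a library or a sort.

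Of 9 junction partners 2 rose and 3 fell as deposited, where 11.6% of all genes rose and 38.7% fell, so the number that fell is near that share. cno, which encodes the actin linker Canoe, was at 0.44 and pyd, the fly ZO-1, at 0.39 on the log2 scale, and these became -0.61 and -0.66 with ERCC subgroup B. alpha-Cat, which ties the cadherin complex to actin, fell from 110 ± 9.40 to 73.6 ± 2.47 FPKM (log2 fold change -0.56, limma adjusted p = 0.00221). With TMM-like scaling alpha-Cat was level between the groups (limma adjusted p = 0.988). p120ctn, a catenin of the same complex, was at -0.48, and at 0.08 with TMM-like scaling. jub, the LIM protein Ajuba, was at -1.09 and stayed lower with TMM-like scaling, at -0.58 (limma adjusted p = 0.0321).

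Of 7 basolateral genes 4 rose and 1 fell as deposited, where 11.6% of all genes rose and 38.7% fell. Those that rose were cora, the FERM protein Coracle of the septate junction, at 1.03, scrib at 0.65, Nrx-IV at 0.45 and Atpalpha at 0.42. All had a limma adjusted p of 0.0217 or less. With ERCC subgroup B they were at -0.03, -0.40, -0.60 and -0.64. dlg1, whose product Discs large acts with Scribble, was at -0.42, and at 0.14 with TMM-like scaling. Fits without a library or a sort kept the calls of Nrx-IV, Atpalpha and dlg1 in 7, 10 and 4 of 12 cases, and those of cora and scrib in 12.

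Of the 14 other cadherins tested, 9 rose and 2 fell as deposited, where 11.6% of all genes rose and 38.7% fell. The median log2 fold change of the 14 was 1.11. With ERCC subgroup B the median was 0.10, and 1 was called higher and 3 lower (3.17% and 64.8% of all genes). Cad87A, one of the 9, turned to -0.22 there. Cad89D rose from 3.94 ± 2.29 to 30.1 ± 7.71 FPKM (SD, n = 4 each), a log2 fold change of 2.73 (limma adjusted p = 5.8e-05), and was still called higher with ERCC subgroup B, at 1.78. Cad96Ca was at 1.91 and ds, the protocadherin Dachsous of planar polarity, at 1.37, and with ERCC subgroup B these were at 0.89 and 0.34 and not called (limma adjusted p = 0.0792 and 0.493). CadN, the neural cadherin, fell from 91.7 ± 24.4 to 32.6 ± 9.15 FPKM, a log2 fold change of -1.46 (limma adjusted p = 3.6e-04) and -0.91 with TMM-like scaling. E-cadherin and the neural cadherin thus stood at 92.1 and 32.6 FPKM in GFP-positive cells and at 69.0 and 91.7 FPKM in all cells. Neuronal and muscle markers fell beside CadN, and their part in its fall was not tested.

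As deposited, the medians were -0.26 for 5 genes of Crumbs trafficking and 0.08 for 5 actomyosin genes. With ERCC subgroup B 4 of the first were called lower, where 64.8% of all genes tested were called lower. With TMM-like scaling 4 of the second were called higher, where 21.6% of all genes were called higher. Among 5 genes of Crumbs trafficking, Rab11, a GTPase of recycling endosomes, was called higher at 0.32, and Vps26, a retromer subunit, lower at -0.47 as deposited. These were at -0.74 with ERCC subgroup B for Rab11 and at 0.08 with TMM-like scaling for Vps26. Of 5 actomyosin genes sqh, the myosin regulatory light chain, was called higher at 0.35 (limma adjusted p = 0.039), and at -0.70 with ERCC subgroup B. Leaving out a library or a sort kept the calls of Rab11, Vps26 and sqh in 4, 10 and 3 of 12 fits.

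**Figure D5:**
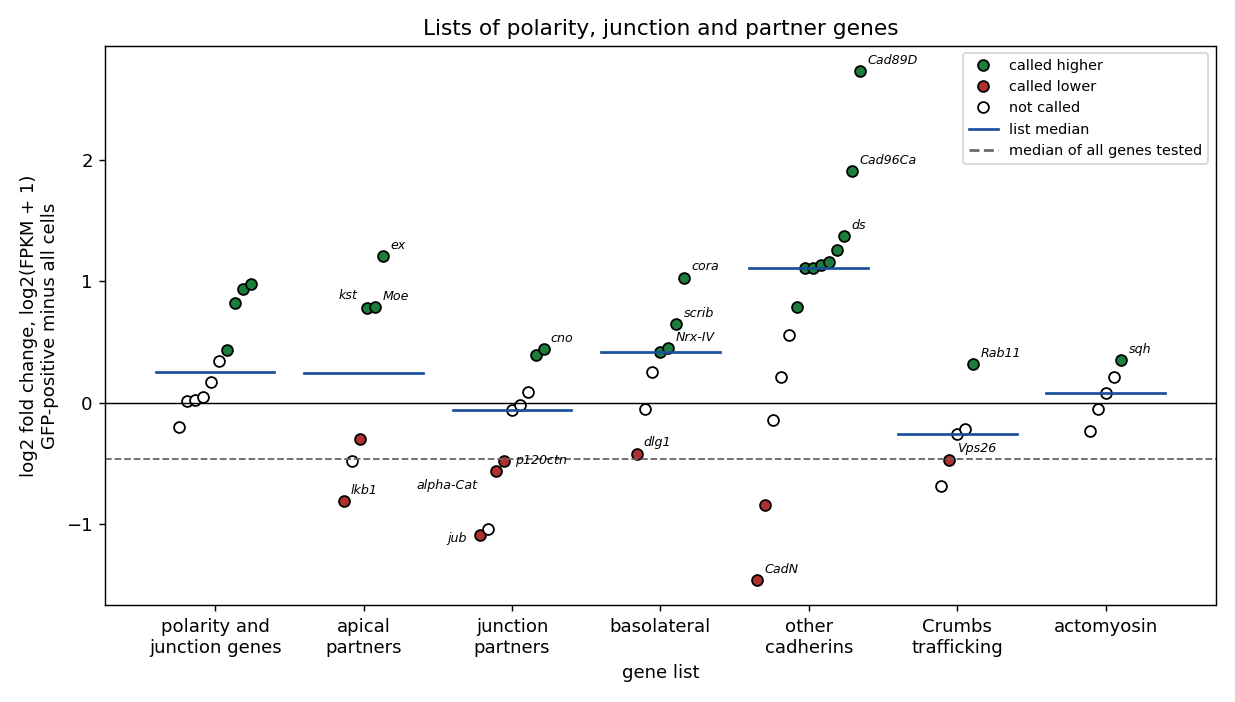
Log2 fold change of each gene tested, GFP-positive minus all cells as deposited, for the 10 genes and 6 lists of partners; filled points passed limma, blue bars are list medians and the dashed line is the median of all genes, at -0.47. The other cadherins span the widest range, from CadN at -1.46 to Cad89D at 2.73.

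The genes most like crb, baz and shg over the 8 libraries were sought by the root mean square difference of log2(FPKM + 1), centred on each gene's mean, among all genes tested. For crb they were RhoGAP15B at 0.112, dpp, which encodes a BMP ligand, at 0.122 and glec, the adhesion protein Gliolectin, at 0.130. For baz they were rho-4 at 0.040, CG5521 at 0.068 and Xbp1, a transcription factor of the unfolded protein response, at 0.079. For shg they were CG42856 at 0.075, CG16853 at 0.080 and LIMK1, a kinase of actin turnover, at 0.110.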

How the data were processed

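RNA of 8 libraries, 4 GFP-positive and 4 all-cell, was analysed from the authors' tables of genes and isoforms. The submitters' processing notes name Cufflinks 1.3.0 and Cuffdiff 1.3.0 after TopHat 1.4.0, and the fly build dm3; settings and strandedness are not given in the sources. FPKM is the unit that the authors deposited, per the file headers, although the tables' names say RPKM. The authors also deposited Cuffdiff log2 fold changes and q-values for each sort. No per-sample column was left unused, and 92 spike-in rows were kept apart.

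Genes and isoforms with 1 FPKM or more in at least 4 of 8 libraries were tested two-sided on log2(FPKM + 1) by limma 3.58.1 (R 4.3.3, variance trended on the mean), with Benjamini-Hochberg adjustment at 0.05. For low genes this scale understates a fold change. Ratios and isoform shares were tested exactly in SciPy 1.17.1. On simulated data with 10943 genes, 200 of them changed, limma recovered 26% of changes of 1 log2 unit and 0% of those of 0.5; in the real comparison far more genes differed. TMM-like factors are trimmed means of log ratios between libraries, computed on FPKM. Depth came from the smallest step of FPKM times length in short loci of 1 isoform; counting error alone sets that floor.

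The labels number the sorts, so that the numbers pair libraries; deviations correlated within sorts by 0.44, 0.10, 0.41 and 0.17 for sorts 1 to 4, and at most by 0.27, 0.15, 0.15 and 0.27 with a library of another sort, which is more than within the sort in sorts 2 and 4. The pairing thus rests on the labels. The fit with the sort as a block was an alternative. Codon numbers are from a Release 6 annotation and are given only for isoforms of the same name and span, 10 of 39, and coordinates are those of the deposited tables on dm3. Of the listed genes, 5 were matched by CG number. The 10 genes, the lists and the tests were chosen with earlier results of these data known. Genes named from a list are up to 4 called ones with the largest change, except Cdc42, pyd, Atpalpha and Cad87A, which were added after their values were seen, as were the isoforms sdt-RG and sdt-RL at under 5 FPKM. Promoter, protein and genome sequences were not used here.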

Additional observations from a re-analysis of the deposited data

Results flagged for a closer look

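In 66 groups of 4 libraries examined among the genes, their ratios and their isoforms at 5 FPKM, 3 had 1 library far from the others by Dixon's criterion, and chance alone flags about 1 group in 20. arm in GFP-positive cells was highest in library 4, with 257 FPKM where the other 3 had 223 to 226 FPKM. arm-RB in all cells was highest in library 4, with 4.67 FPKM where the other 3 had 0 to 0.0253 FPKM. crb-RB in GFP-positive cells was lowest in library 1, with 10.5 FPKM where the other 3 had 19.6 to 21.4 FPKM.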

How the results depend on the processing

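With the sort as a replicate block, 4 of the 10 genes were again called higher and 0 lower, and the block ended 1 isoform call, that of crb-RB; limma's shg call gave an adjusted p of 0.0274 there. The number of the 10 genes called higher was 9 with upper quartile scaling, 10 with TMM-like scaling, 0 with the ERCC sum or subgroup B, and 2 in the test against a log2 fold change of 0.5. The number called lower was 1 with quantile normalization (arm) or the ERCC sum and 3 with subgroup B. Of the 46 partner genes, 1 was called higher with the ERCC sum or subgroup B and 8 against 0.5, and 5, 2, 2, 20 and 2 were called lower with quantile, upper quartile, TMM-like and subgroup B scaling and against 0.5. Over all genes tested, 18.9% were called lower with TMM-like scaling and 64.8% with subgroup B. Of the isoforms, 13 were called higher with upper quartile or TMM-like scaling, 2 with either ERCC scaling and 4 against 0.5, and 1, 5 and 9 lower with TMM-like scaling, the ERCC sum and subgroup B.

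Leaving out libraries or sorts gave 3 to 4 of the 10 genes called higher and 0 lower, 15 to 21 partner genes higher and 3 to 10 lower, and 4 to 8 isoforms higher and 2 lower. Of 37 genes and isoforms of the 10 genes and their partners that are named and called, 21 kept their call in every such fit and 16 lost it in some; all 12 fits kept crb, sdt, ed, sdt-RG, sdt-RF, arm-RC and arm-RB. Without sort 2, 4 isoforms were called higher and 3 partner genes lower. Log2 differences of the ratios ran from 0.07 to 0.20 for sdt to crb, from -0.89 to -0.66 for Patj to sdt, from 0.20 to 0.35 for baz to aPKC, from -0.18 to 0.04 for par-6 to aPKC, from -0.76 to -0.45 for arm to shg and from -0.90 to -0.71 for yrt to crb. Shares of the leading isoform differed by -0.815 to 6.99 percentage points for crb-RA, 1.48 to 5.97 for sdt-RI, -39.9 to -13.3 for Patj-RC, -11.4 to -6.12 for aPKC-RC and -5.34 to 1.59 for arm-RD. The log2 fold changes whose sign turned were those of par-6 and its isoform par-6-RA (-0.06 to 0.11 each), aPKC (-0.04 to 0.14, and -0.02 without all-cell library 2), yrt (-0.04 to 0.07), arm-RA (-0.29 to 0.13, and 0.09 without sort 2), Patj-RA (-0.08 to 2.26) and Patj-RC (-1.35 to 0.12).

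Signs turned as follows, and the cause was not tested. With subgroup B the log2 fold changes were crb -0.22, sdt -0.10, Patj -0.81, baz -0.67, par-6 -1.02, aPKC -0.97, yrt -1.0, shg -0.62, ed -0.07, kst -0.26, Moe -0.26, cno -0.61, scrib -0.40, cora -0.03, Nrx-IV -0.60, Rab11 -0.74, sqh -0.70, pyd -0.66, Atpalpha -0.64, Cad87A -0.22, the amnioserosa marker peb -0.54, crb-RA -0.14, crb-RB -0.07, crb-RC -0.60, sdt-RH -0.69, aPKC-RA -0.47, shg-RA -0.62, ed-RA -0.07, par-6-RA -1.02, baz-RA -0.68 and yrt-RA -0.67. With the ERCC sum they were crb -0.11, Patj -0.71, baz -0.56, par-6 -0.91, aPKC -0.86, yrt -0.89, shg -0.51, kst -0.15, Moe -0.14, cno -0.50, scrib -0.29, Nrx-IV -0.49, Rab11 -0.62, sqh -0.58, pyd -0.54, Atpalpha -0.53, Cad87A -0.11, peb -0.43, crb-RA -0.03, crb-RC -0.51, sdt-RH -0.60, aPKC-RA -0.37, shg-RA -0.51, par-6-RA -0.91, baz-RA -0.57 and yrt-RA -0.56. With TMM-like scaling they were arm 0.36, Cdc42 0.26, dlg1 0.14, p120ctn 0.08, Vps26 0.08, arm-RA 0.51, arm-RD 0.29 and aPKC-RC 0.32. Upper quartile scaling gave arm 0.21, Cdc42 0.11, arm-RA 0.36, arm-RD 0.14 and aPKC-RC 0.18, quantile normalization arm-RA 0.05 and aPKC-RC 0.15, and array weights par-6 -0.03 and par-6-RA -0.02. The call of shg was also lost with a pseudocount of 0.1 (limma adjusted p = 0.0514) with no filter on low values (limma adjusted p = 0.056), with a filter on a mean of 1 FPKM (limma adjusted p = 0.05) and against a log2 fold change of 0.5 (limma adjusted p = 0.943), and that of crb against 0.5 (limma adjusted p = 0.12), over a range of 3.6e-04 to 0.861 for crb and 0.00225 to 0.943 for shg. Depth limits what can be seen of isoforms at low FPKM.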
